A study of Homo sapiens with 12 samples.

Results

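The genes described here are 41 interferon-stimulated genes that belong to neither the IFIT nor the OAS family. They were taken by gene symbol from a table of 59172 features, and all 41 were found in it. RNA had been sequenced from HCT-116, an established human colorectal carcinoma line, in 4 groups of 3 libraries. Wild-type cells were left untreated, or were exposed for 24 h to CPT-11 (irinotecan, a prodrug of a topoisomerase I poison that causes DNA breaks), or received 4 h of lovastatin (an inhibitor of the sterol enzyme HMG-CoA reductase) before the same 24 h of CPT-11. The other group carried a short hairpin RNA against SHP2, the phosphatase encoded by PTPN11, and was also exposed to CPT-11 for 24 h. The treatment label of this silenced group mentions lovastatin as well, whereas its titles and the treatment protocol do not, so it was grouped by title. The labels give no doses, and they do not say whether the silenced cells are 1 clone or a pool. Cells with a control hairpin, silenced cells without CPT-11 and cells given lovastatin alone were not analysed here. An effect of the silencing therefore cannot be told apart from an effect of the vector.

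Interferons are secreted proteins that bind receptors on the cell surface and activate the kinases JAK1 and TYK2. Among their targets is STAT2, which joins IRF9 in the complex ISGF3, and this complex binds interferon-stimulated response elements before many genes. Cytosolic DNA, which can follow DNA damage, is sensed by the enzyme cGAS and signals through STING (TMEM173) and the kinase TBK1 to interferon genes, and this link is the subject of the series. The products of interferon-stimulated genes restrict viruses, sense foreign nucleic acid and tune the response itself.

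Many genes of this class carry the response element close to their start. Promoter windows are shown for 5 members with large or opposed changes, and only where the letters described below were found. RefSeq promoter sequences (GRCh38.p14) were matched for 34 of the 41 members, and DDX58 was matched under its present name RIGI. Each window was searched over the 250 bases before an annotated start for the letters GAAANNGAAA and, for the other strand, TTTCNNTTTC, which may share letters with each other where they overlap. Capitals mark the matches. The windows are ISG15 at chr1:1013354-1013429 on the plus strand, IFI6 at chr1:27672246-27672378 on the minus strand, BST2 at chr19:17405715-17405790 on the minus strand, HERC5 at chr4:88456964-88457084 on the plus strand and SAMD9 at chr7:93118076-93118145 on the minus strand, each written 5′ to 3′ on the gene's strand.
ISG15: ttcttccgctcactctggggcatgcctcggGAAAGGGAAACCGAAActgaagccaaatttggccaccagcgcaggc
IFI6: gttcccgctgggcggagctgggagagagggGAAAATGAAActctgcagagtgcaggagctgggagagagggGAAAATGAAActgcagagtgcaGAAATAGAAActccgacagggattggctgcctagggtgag
BST2: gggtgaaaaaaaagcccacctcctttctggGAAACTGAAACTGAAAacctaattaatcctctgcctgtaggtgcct
HERC5: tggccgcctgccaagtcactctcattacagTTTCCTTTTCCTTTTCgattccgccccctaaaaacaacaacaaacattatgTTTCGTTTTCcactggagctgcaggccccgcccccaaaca
SAMD9: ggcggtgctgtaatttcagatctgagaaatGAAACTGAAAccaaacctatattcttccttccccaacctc

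The letters were found in at least 1 window of 20 of the 34 matched members (58.8%), against 1014 of 27305 genes with a RefSeq window (3.71%). ISG15 and BST2 each held a pair of overlapping matches, IFI6 held 3 and SAMD9 held 1. HERC5 held an overlapping pair and a further match, all read as TTTCNNTTTC. DDX58 and DTX3L were also considered for display but held no match. STAT2, TRIM21, EIF2AK2 and ADAR were among the other matched members with none. The letters TTCNNNGAA, which read the same on both strands, were found in 10 of 34 members (29.4%) and in 8.09% of genes. A match is a description of letters and not evidence of binding.

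**Figure D1:**
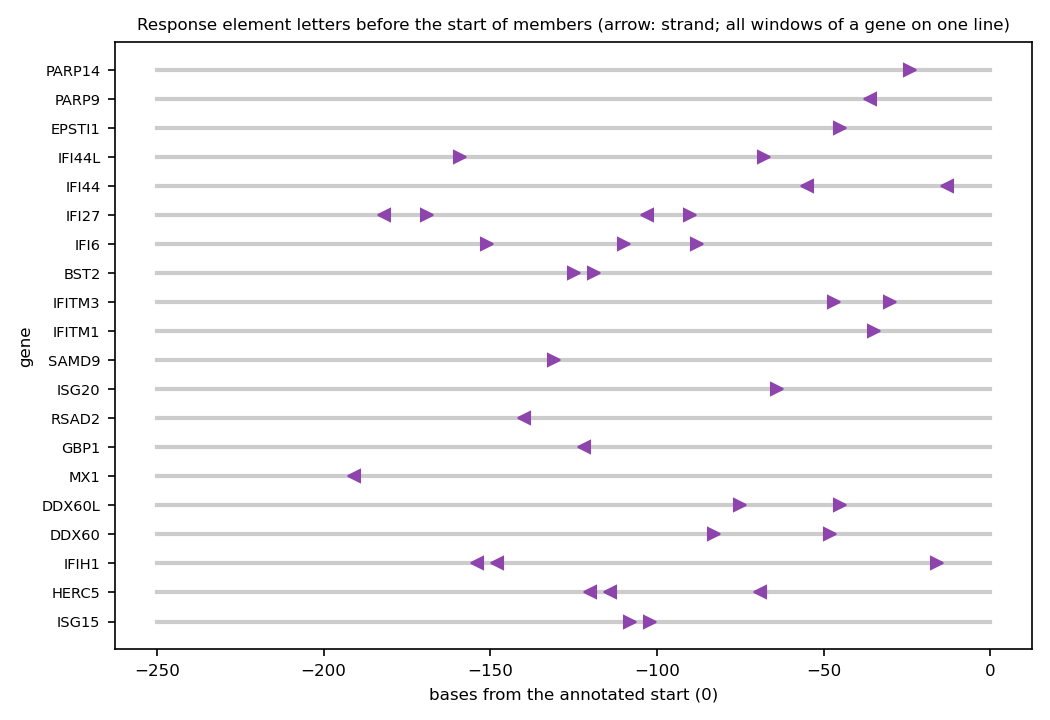
Matches to GAAANNGAAA or, for the other strand, TTTCNNTTTC, for the 20 members with at least 1 match. Positions are distances in bases from the start, within the 250 bases before each annotated start. Arrows give the strand and all windows of a gene share a line. Most genes have 1 or 2 matches, and IFI6, HERC5 and IFIH1 have 3. The 4 marks of IFI27 and the 2 marks of IFI44 come from 2 annotated starts each, and the same sites are marked from both starts.

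The libraries held 14447847 to 16224271 reads assigned to genes. PTPN11 was 6.01 to 7.15 FPKM in the silenced libraries and 43.2 to 55.4 FPKM in the others. HMGCS1, a sterol gene that rises under statins, was 101 to 105 FPKM with lovastatin and 24.9 to 25.8 FPKM in the silenced libraries. CDKN1A, a target of p53 induced by DNA damage, was 142 to 157 FPKM in untreated libraries and 483 to 704 FPKM in the 9 treated ones. Summed over 9 epithelial markers, the level was 847 to 941 FPKM in untreated and 965 to 1219 FPKM in treated libraries, although CEACAM5, VIL1 and CDX1 were at or near 0. Summed over 10 markers of blood, fibroblast and endothelial cells it was 4.40 to 5.35 FPKM in untreated and 6.53 to 10.2 FPKM in treated libraries, nearly all from COL1A1, ACTA2 and ITGAM, with PTPRC, CD3E, CD14 and COL1A2 at or near 0. The part of these shifts in the results was not tested. CPT-11 replicate 3 stood apart from replicates 1 and 2 in how levels moved with the GC content of transcripts: its slope was 0.09 log2 units per 10 points of GC, against -0.17 and -0.20, and lay within the range of the silenced and lovastatin libraries (0.01 to 0.15). Results that rest on it are given with and without it. Untreated replicates 1, 2 and 3 had slopes of -0.01, -0.10 and -0.16, all below those of the lovastatin and silenced libraries. Comparisons of these 2 groups with untreated cells therefore also carry a difference in GC slope. Whether replicate libraries stem from independent cultures is not labelled. The p-values therefore reflect the spread between these samples alone, and that spread may be technical.

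The members spanned more than 4 orders of magnitude in level. FPKM, a read count per kilobase of gene corrected for the depth of the library, averaged at least 10 over the 12 libraries in 10 members, 1 to 10 in 17 and under 1 in 14. ISG15, a ubiquitin-like protein, was the most abundant at 306 FPKM, followed by the membrane protein IFITM3 at 121 FPKM and the RNA editing enzyme ADAR at 47.7 FPKM. GBP1 and MX2, both GTPases, SAMD9L, a relative of SAMD9, IFI44L and XAF1, a cell death gene, had 0 to 11 reads in every library and were not tested. In the table's gene models 22 of the 41 members lie within 200 kb of another member, in 10 groups, and neighbours could differ widely in level. SAMD9 had 429 to 1013 reads where its neighbour SAMD9L had 2 to 11, IFI44 had 56 to 143 where IFI44L had 0 to 5, and MX1 had 11 to 44 where MX2 had 1 to 8.

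Against untreated cells, CPT-11 alone raised 20 of the 36 tested members and lowered 1, where 8.85% of all 18062 genes tested rose and 7.7% fell, 16.5% in either direction (limma on log2(FPKM + 1), Benjamini-Hochberg adjusted p under 0.05). With lovastatin before CPT-11, 20 rose and 0 fell, against 14.7% and 14.3% of all genes (29% in either direction). In silenced cells given CPT-11, 16 rose and 3 fell, against 18.3% and 19.5% of all genes (37.8% in either direction). The median log2 change of the tested members was 0.34, 0.36 and 0.27 in these comparisons, and that of all genes was -0.0066, 0.003 and 0.0046. The libraries of both groups did not overlap, treated above untreated, in 22, 26 and 22 members, where 15.1%, 24% and 27% of all genes had such groups, and treated below untreated in 1, 3 and 3 members, where 14.3%, 23.3% and 27% had. The 3 comparisons share the untreated libraries. In bulk RNA, more responding cells and more RNA per cell cannot be told apart.

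The counts for CPT-11 alone depended on how the spread was estimated. For each gene the main fit shares 1 spread over all 4 groups. CPT-11 replicate 3 differed from replicates 1 and 2 by 0.33 and 0.37 log2 units (root mean square over tested genes). The other pairs within groups differed by 0.18 to 0.25. The p-values of comparisons with CPT-11 alone may therefore be too small. In a fit to the 2 groups only, 6 members rose (HERC5, STAT2, ISG20, IFI44, DTX3L and TRIM22), where 4.08% of all genes did. Without CPT-11 replicate 1, 12 rose, where 6.73% of all genes did. Without CPT-11 replicate 3, 21 rose, where 11.6% of all genes did. Scaling to library totals moved the split of all genes from 1598 higher and 1391 lower to 1910 and 1004 for CPT-11, from 2654 and 2580 to 3247 and 1952 with lovastatin, and from 3308 and 3520 to 4328 and 2570 in silenced cells. The members then stood at 21 higher and 1 lower, 22 and 0, and 21 and 0. When 1 library of either group was left out in turn, 11 of the 21 calls with CPT-11 held in all 6 fits, as did 14 of the 20 with lovastatin and 14 of the 19 in silenced cells. Calls lost in 3 or more of these fits were BST2, EPSTI1, HERC6, IFITM1, IRF9, MX1, PARP9, SP100 and USP18 with CPT-11, DHX58, PARP9, PARP14, RSAD2 and SAMD9 with lovastatin, and ADAR, DDX60L, EIF2AK2 and IFITM1 in silenced cells.

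**Figure D2:**
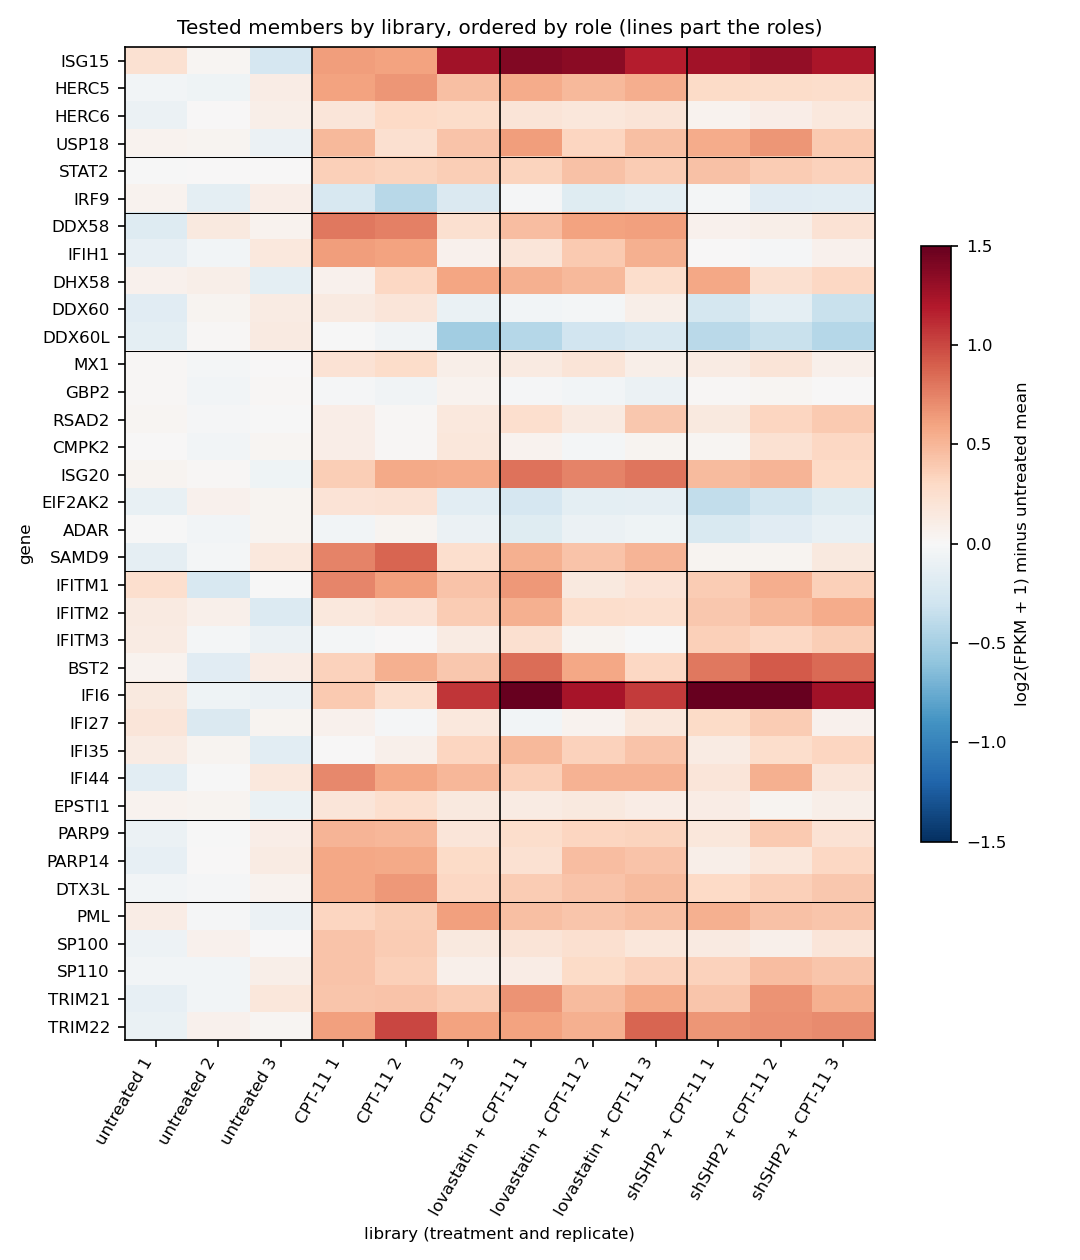
Each tested member (rows, by role) in each of the 12 libraries (columns) as log2(FPKM + 1) minus the mean of the untreated libraries; red is above and blue below that mean. ISG15 and IFI6 are highest with lovastatin and in silenced cells and in CPT-11 replicate 3, whereas DDX58, IFIH1 and SAMD9 are highest in CPT-11 replicates 1 and 2.

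The first role is the ISG15 system, in which ISG15 is joined to other proteins by ligases that include HERC5 and is removed by the protease USP18, itself a brake on the interferon receptor. All 4 members rose with CPT-11 alone, and 3 rose in each of the other treatments. For this and each later role, the shares of all genes that rose were 8.85% with CPT-11, 14.7% with lovastatin and 18.3% in silenced cells. The shares that fell were 7.7%, 14.3% and 19.5%. ISG15 (ENSG00000187608, chromosome 1, 1001138 to 1014540) was 185, 160 and 132 FPKM in untreated libraries, 244, 240 and 381 with CPT-11, 416, 403 and 357 with lovastatin before CPT-11, and 379, 395 and 371 in silenced cells. Every treated library was above every untreated one, and CPT-11 replicate 3 lay with the lovastatin and silenced libraries. The change was 0.83 ± 0.17 log2 units with CPT-11 (adjusted p = 0.006), 1.30 ± 0.17 with lovastatin (2.1e-04) and 1.27 ± 0.17 in silenced cells (1.9e-04). In the fit to the 2 groups only, the CPT-11 change did not pass (adjusted p = 0.061). Without replicate 3 it was 0.61 with an adjusted p of 0.0038. Corrected for GC content and gene length, a setting added after the data were seen, the changes were 0.89, 1.09 and 0.91, and all passed. Silenced cells against CPT-11 alone differed by 0.44 ± 0.17, which did not pass (adjusted p = 0.078). That difference was 0.65 without replicate 3 (0.0013) and 0.02 with the correction (0.83).

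HERC5 (ENSG00000138646, chromosome 4, 88457117 to 88506163) had another order. It was 9.80, 9.62 and 11 FPKM in untreated libraries, 15.9, 16.6 and 14.2 with CPT-11, 15.3, 14.5 and 15.2 with lovastatin before CPT-11, and 12.6, 12.5 and 12.4 in silenced cells. The silenced libraries lay between the untreated and all the other treated ones without touching either. HERC5 rose by 0.57 ± 0.07 with CPT-11 (adjusted p = 1.7e-04), 0.53 ± 0.07 with lovastatin (1.8e-04) and 0.28 ± 0.07 in silenced cells (0.0068). USP18 ranged from 3.31 to 6.29 FPKM and rose in all 3, by 0.38 ± 0.10, 0.47 ± 0.10 and 0.54 ± 0.10. HERC6, a relative of HERC5 in the neighbouring gene, ranged from 2.62 to 3.71 FPKM and rose with CPT-11 alone (0.25 ± 0.07, adjusted p = 0.033). Its change was 0.19 ± 0.07 with lovastatin and 0.10 ± 0.07 in silenced cells.

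**Figure D3:**
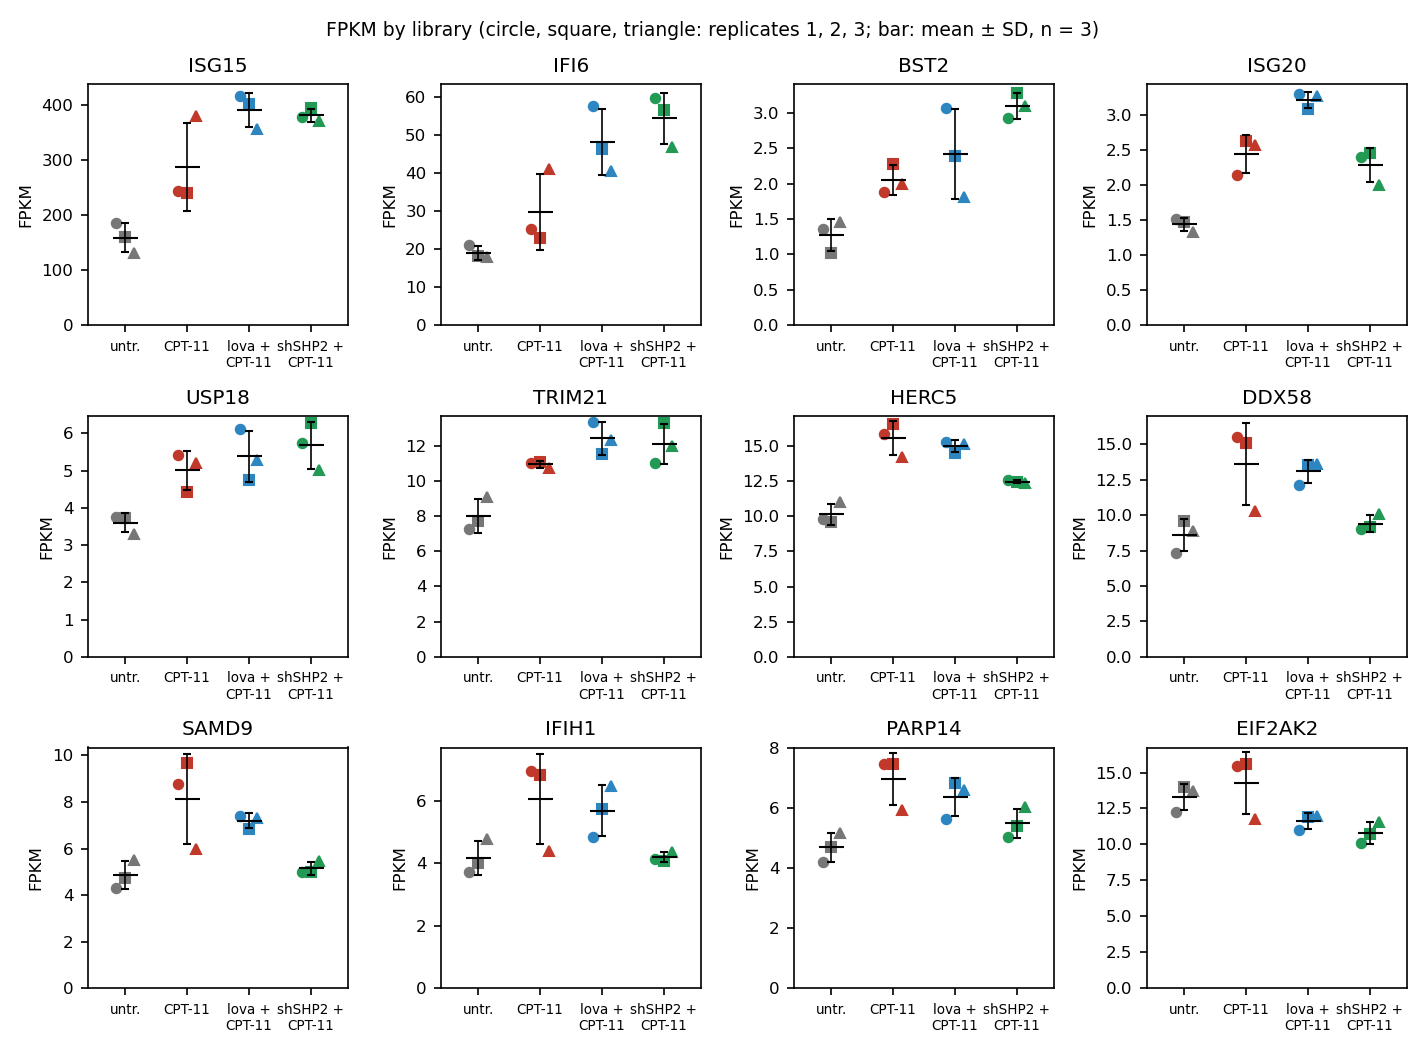
FPKM of 12 members in each library by group, with the mean and SD of 3 libraries; all axes start at 0. ISG15, IFI6 and BST2 are highest with lovastatin or in silenced cells, and HERC5, DDX58, SAMD9 and IFIH1 are lower in silenced cells than in CPT-11 replicates 1 and 2.

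Of the members that signal, STAT2 and IRF9, both subunits of ISGF3, STAT2 had the tightest values. STAT2 (ENSG00000170581, chromosome 12, 56341597 to 56360155) was 9.78, 9.83 and 9.87 FPKM in untreated libraries, 12.9, 12.6 and 13.0 with CPT-11, 12.7, 13.7 and 13.1 with lovastatin before CPT-11, and 13.7, 13.1 and 12.8 in silenced cells. All treated libraries were above all untreated ones, and the 3 treated groups overlapped. The changes were 0.35 ± 0.05 (adjusted p = 6.5e-04), 0.39 ± 0.05 (2.0e-04) and 0.39 ± 0.05 (1.6e-04). IRF9 was listed at 0.619, 0.416 and 0.678 FPKM in untreated libraries, 0.325, 0.172 and 0.350 with CPT-11, 0.549, 0.377 and 0.416 with lovastatin before CPT-11, and 0.534, 0.391 and 0.408 in silenced cells. CPT-11 libraries were below the others, and IRF9 was the 1 member that fell with CPT-11 alone (-0.29 ± 0.08, adjusted p = 0.034). These values rest on 10 to 38 reads per library, and 48.4% of the IRF9 exon bases are shared with AL136295.5 on the same strand, so its level is uncertain. The call was lost in the fit to the 2 groups only, with no filter, and when CPT-11 replicate 1 or 2 or untreated replicate 1 or 3 was omitted.

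The cytosolic RNA sensors RIG-I (DDX58), MDA5 (IFIH1) and LGP2 (DHX58) recognise viral RNA, and DDX60 and DDX60L are helicases related to them. Of the 5 genes, 1 rose with CPT-11 alone, 2 rose with lovastatin, and none rose and 1 fell in silenced cells. DDX58 (ENSG00000107201, chromosome 9, 32455705 to 32526324) was 7.33, 9.59 and 8.87 FPKM in untreated libraries, 15.5, 15.1 and 10.3 with CPT-11, 12.2, 13.6 and 13.6 with lovastatin before CPT-11, and 9.01, 9.13 and 10.1 in silenced cells. CPT-11 replicate 3 was close to the silenced and untreated libraries, which overlapped each other. DDX58 rose by 0.59 ± 0.14 with CPT-11 (adjusted p = 0.013) and 0.56 ± 0.14 with lovastatin (0.01), and its change in silenced cells was 0.12 ± 0.14 (0.51). The CPT-11 call was lost without CPT-11 replicate 1 and in the fit to the 2 groups only. Without replicate 3 the CPT-11 change was 0.77. Corrected for GC content and gene length, a setting added after the data were seen, the change in silenced cells was 0.31 and passed (adjusted p = 0.02).

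IFIH1 ranged from 3.73 to 6.97 FPKM and followed DDX58, with 6.97 and 6.84 FPKM in the first 2 CPT-11 replicates against 4.40 in replicate 3. Its change of 0.43 ± 0.15 with CPT-11 did not pass (adjusted p = 0.068) but was 0.62 without replicate 3 (0.0025). DHX58, at 0.546 to 1.59 FPKM, rose with lovastatin before CPT-11 (0.43 ± 0.14, adjusted p = 0.042). DDX60L was 8.0, 9.07 and 9.95 FPKM in untreated libraries, 8.94, 8.61 and 5.97 with CPT-11, 6.41, 7.15 and 7.45 with lovastatin before CPT-11, and 6.54, 6.93 and 6.39 in silenced cells. All lovastatin and silenced libraries and CPT-11 replicate 3 were below the untreated ones, and DDX60L fell in silenced cells (-0.39 ± 0.12, adjusted p = 0.03). Under the same correction that change was -0.10 with an adjusted p of 0.23. DDX60 ranged from 2.90 to 4.59 FPKM and passed in none of the comparisons with untreated cells.

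The largest role, of 11 members, holds GTPases and enzymes that act on RNA or nucleotides. Of the 8 tested, 3 rose with CPT-11 alone (MX1, ISG20 and SAMD9), 3 with lovastatin (RSAD2, ISG20 and SAMD9) and 2 in silenced cells (RSAD2 and ISG20), where EIF2AK2 and ADAR fell. ISG20 (ENSG00000172183, chromosome 15, 88636153 to 88656483), an exonuclease that degrades single-stranded RNA, was 1.51, 1.47 and 1.33 FPKM in untreated libraries, 2.14, 2.63 and 2.58 with CPT-11, 3.30, 3.08 and 3.27 with lovastatin before CPT-11, and 2.40, 2.46 and 2.01 in silenced cells. The lovastatin libraries were above all others, and the untreated ones below all others. The changes from untreated were 0.50 ± 0.08 (adjusted p = 0.0024), 0.79 ± 0.08 (6.2e-05) and 0.43 ± 0.08 (0.0024).

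SAMD9 (ENSG00000205413, chromosome 7, 93099513 to 93118023), a restriction factor for poxviruses, was 4.32, 4.73 and 5.5 FPKM in untreated libraries, 8.75, 9.66 and 5.97 with CPT-11, 7.41, 6.83 and 7.33 with lovastatin before CPT-11, and 4.97, 5.01 and 5.46 in silenced cells. Silenced libraries fell within the untreated range, and both other treated groups were above it. SAMD9 rose by 0.62 ± 0.14 with CPT-11 (adjusted p = 0.0094) and 0.49 ± 0.14 with lovastatin (0.019), and its change in silenced cells was 0.08 ± 0.14 (0.69). The CPT-11 call was lost in the fit to the 2 groups only (adjusted p = 0.081). Corrected for GC content and gene length, the change in silenced cells was 0.37 with an adjusted p of 0.0021.

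EIF2AK2 encodes PKR, which halts translation when it binds double-stranded RNA, and ADAR edits such RNA. EIF2AK2 was 12.3, 14 and 13.7 FPKM in untreated libraries, 15.4, 15.6 and 11.8 with CPT-11, 11, 11.9 and 12 with lovastatin before CPT-11, and 10.1, 10.8 and 11.6 in silenced cells. ADAR was 50.01, 49.1 and 52.1 FPKM in untreated libraries, 48.9, 51.9 and 47.3 with CPT-11, 44.2, 47.2 and 48.0 with lovastatin before CPT-11, and 42.8, 44.8 and 46.6 in silenced cells. Silenced libraries and lovastatin libraries were below untreated ones for both genes, but with lovastatin neither fall was called. EIF2AK2 fell by 0.28 ± 0.10 log2 units (adjusted p = 0.045) and ADAR by 0.17 ± 0.05 (0.03) in silenced cells. Scaled to library totals neither call held, nor with the GC and length correction, where the ADAR change was -0.11 (adjusted p = 0.059).

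The low members of this role moved within small numbers of reads. RSAD2 (viperin), with 9 to 38 reads, rose with lovastatin (0.26 ± 0.08, adjusted p = 0.025) and in silenced cells (0.29 ± 0.08, 0.013). MX1, with 11 to 44 reads, rose with CPT-11 alone (0.19 ± 0.06, adjusted p = 0.041). CMPK2, next to RSAD2, and GBP2 passed in none of these comparisons, at 0.396 to 0.791 and 0.0302 to 0.135 FPKM. On the log2(FPKM + 1) scale such changes are understated.

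Membrane proteins that trap or block viruses at membranes had all 4 members higher in silenced cells, where 18.3% of all genes rose. In each of the other treatments 2 were higher, where 8.85% (CPT-11) and 14.7% (lovastatin) of all genes rose. With the GC and length correction, IFITM1 and IFITM3 lost the call in silenced cells. IFITM3 (ENSG00000142089, chromosome 11, 319669 to 327537), which hinders virus entry from endosomes, was 121, 109 and 104 FPKM in untreated libraries, 108, 111 and 121 with CPT-11, 131, 114 and 111 with lovastatin before CPT-11, and 143, 138 and 144 in silenced cells. Only the silenced group lay above all other libraries. The change was 0.35 ± 0.08 there (adjusted p = 0.0045), 0.03 ± 0.08 with CPT-11 (0.84) and 0.09 ± 0.08 with lovastatin (0.4). Corrected for GC content and gene length, the change in silenced cells was 0.13 and did not pass (adjusted p = 0.076). Of the IFITM3 exon bases, 21.3% overlap AC136475.5 on the other strand.

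IFITM2 was 36.4, 35.0 and 28.5 FPKM in untreated libraries, 37.0, 38.4 and 43.6 with CPT-11, 48.3, 40.0 and 39.6 with lovastatin before CPT-11, and 44.3, 46.8 and 49.0 in silenced cells. All treated libraries were above all untreated ones. IFITM2 rose with lovastatin (0.35 ± 0.10, adjusted p = 0.026) and in silenced cells (0.48 ± 0.10, 0.0039), and its change with CPT-11 was 0.25 ± 0.10 (0.13). IFITM1, at 2 to 21 reads, rose with CPT-11 (0.59 ± 0.15, adjusted p = 0.021) and in silenced cells (0.43 ± 0.15, 0.044), the latter lost after GC and length correction (0.30, 0.14). The gene model of IFITM1 shares 32.5% of its exon bases with that of IFITM2 on the same strand. Reads of both genes could therefore have been split or lost in the authors' counting.

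BST2 (ENSG00000130303, chromosome 19, 17402939 to 17405648), or tetherin, which holds budding virus particles at the cell surface, was 1.36, 1.01 and 1.45 FPKM in untreated libraries, 1.88, 2.28 and 2.00 with CPT-11, 3.06, 2.39 and 1.80 with lovastatin before CPT-11, and 2.92, 3.28 and 3.10 in silenced cells. All treated libraries were above the untreated ones. The lovastatin libraries overlapped both other treated groups. BST2 rose by 0.43 ± 0.13 with CPT-11 (adjusted p = 0.043), 0.58 ± 0.13 with lovastatin (0.0065) and 0.85 ± 0.13 in silenced cells (4.6e-04). The CPT-11 call was lost in 10 of 16 alternative settings, among them the omission of any 1 library of either group.

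Among the IFI genes, named for their induction by interferon, IFI6, a small mitochondrial and endoplasmic reticulum protein, had the largest change of any member on the log2 scale. IFI6 (ENSG00000126709, chromosome 1, 27666061 to 27672218) was 21.1, 18.2 and 17.9 FPKM in untreated libraries, 25.2, 22.8 and 41.1 with CPT-11, 57.5, 46.2 and 40.4 with lovastatin before CPT-11, and 59.6, 56.5 and 46.7 in silenced cells. CPT-11 replicate 3 lay within the lovastatin range, and replicates 1 and 2 lay near the untreated libraries. IFI6 rose by 1.28 ± 0.19 with lovastatin (adjusted p = 6.5e-04) and 1.46 ± 0.19 in silenced cells (2.2e-04), which are 2.52 and 2.85 times the untreated mean. Its change of 0.57 ± 0.19 with CPT-11 alone did not pass (adjusted p = 0.069), and was 0.32 without replicate 3 (0.13). After GC and length correction it passed, at 0.59 with all 3 libraries (adjusted p = 0.011) and at 0.42 without replicate 3 (0.023).

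IFI35, a protein of the NMI complex, was 6.30, 5.88 and 5.01 FPKM in untreated libraries, 5.76, 6.06 and 7.41 with CPT-11, 8.38, 7.53 and 8.0 with lovastatin before CPT-11, and 6.33, 7.03 and 7.37 in silenced cells. The lovastatin libraries were above all others, and IFI35 rose there (0.42 ± 0.10, adjusted p = 0.0094). IFI44 ranged from 1.90 to 4.33 FPKM and rose with CPT-11 (0.60 ± 0.12, adjusted p = 0.0059) and with lovastatin (0.47 ± 0.12, 0.013). EPSTI1, at 6 to 28 reads, rose with CPT-11 alone (0.19 ± 0.05, adjusted p = 0.026). IFI27, at 0.441 to 1.19 FPKM, passed in none of the comparisons.

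PARP9 and PARP14, of the family of ADP-ribose transferases, and DTX3L, the ubiquitin ligase that partners PARP9, lie together on chromosome 3 between 122527924 and 122730840. All 3 rose with CPT-11 and with lovastatin, and DTX3L rose in silenced cells. PARP14 was 4.2, 4.70 and 5.16 FPKM in untreated libraries, 7.47, 7.45 and 5.95 with CPT-11, 5.63, 6.83 and 6.60 with lovastatin before CPT-11, and 5.03, 5.40 and 6.02 in silenced cells. DTX3L was 3.52, 3.58 and 3.81 FPKM in untreated libraries, 5.95, 6.28 and 4.76 with CPT-11, 5.04, 5.23 and 5.43 with lovastatin before CPT-11, and 4.71, 4.93 and 5.12 in silenced cells. For DTX3L every treated library was above every untreated one, and for PARP14 the silenced group overlapped the untreated. DTX3L rose by 0.52 ± 0.09 (adjusted p = 0.0022), 0.43 ± 0.09 (0.004) and 0.35 ± 0.09 (0.0083), and PARP14 by 0.48 ± 0.10 (0.0096) and 0.37 ± 0.10 (0.021), with 0.19 ± 0.10 in silenced cells (0.18). PARP9 ranged from 1.70 to 3.09 FPKM and rose by 0.40 ± 0.10 and 0.30 ± 0.10, with 0.26 ± 0.10 in silenced cells (adjusted p = 0.069). Corrected for GC content and gene length, both passed in silenced cells, PARP14 at 0.40 (adjusted p = 8.2e-04) and PARP9 at 0.44 (6.6e-04). The PARP14 call with CPT-11 was lost in the fit to the 2 groups only (adjusted p = 0.058).

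PML organises nuclear bodies, SP100 and SP110 are nuclear body proteins, and TRIM21 and TRIM22 are ubiquitin ligases, of which TRIM21 binds antibody in the cytosol. Of these 5, 4 rose with CPT-11, 3 with lovastatin and 4 in silenced cells. TRIM22 (ENSG00000132274, chromosome 11, 5689689 to 5737089) was 0.138, 0.273 and 0.248 FPKM in untreated libraries, 0.872, 1.44 and 0.853 with CPT-11, 0.844, 0.764 and 1.24 with lovastatin before CPT-11, and 0.933, 0.955 and 0.986 in silenced cells. The treated groups overlapped, and all their libraries were above the untreated ones. TRIM22 rose by 0.74 ± 0.12 (adjusted p = 0.0013), 0.67 ± 0.12 (0.0014) and 0.69 ± 0.12 (9.5e-04), and its mean FPKM was 4.82, 4.33 and 4.37 times the untreated mean, above the ratio of any other tested member in any of these comparisons. Of its exon bases, 10.7% are shared with OR56B1.

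TRIM21 was 7.23, 7.68 and 9.10 FPKM in untreated libraries, 11, 11.1 and 10.7 with CPT-11, 13.4, 11.5 and 12.3 with lovastatin before CPT-11, and 11, 13.3 and 12 in silenced cells. PML was 3.94, 3.51 and 3.29 FPKM in untreated libraries, 4.71, 4.90 and 5.98 with CPT-11, 5.23, 5.11 and 5.23 with lovastatin before CPT-11, and 5.60, 5.18 and 5.09 in silenced cells. Both were higher in every treated library than in every untreated one. TRIM21 rose by 0.41 ± 0.09 (adjusted p = 0.0088), 0.58 ± 0.09 (6.7e-04) and 0.54 ± 0.09 (7.6e-04), and PML by 0.43 ± 0.09 (0.006), 0.44 ± 0.09 (0.0034) and 0.46 ± 0.09 (0.0019). SP100 rose with CPT-11 alone (0.32 ± 0.08, adjusted p = 0.023) and SP110 in silenced cells (0.41 ± 0.10, 0.0085), with ranges of 3.43 to 5.30 and 1.27 to 2.24 FPKM. Of the SP110 exon bases, 20.9% overlap genes on the other strand.

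**Figure D4:**
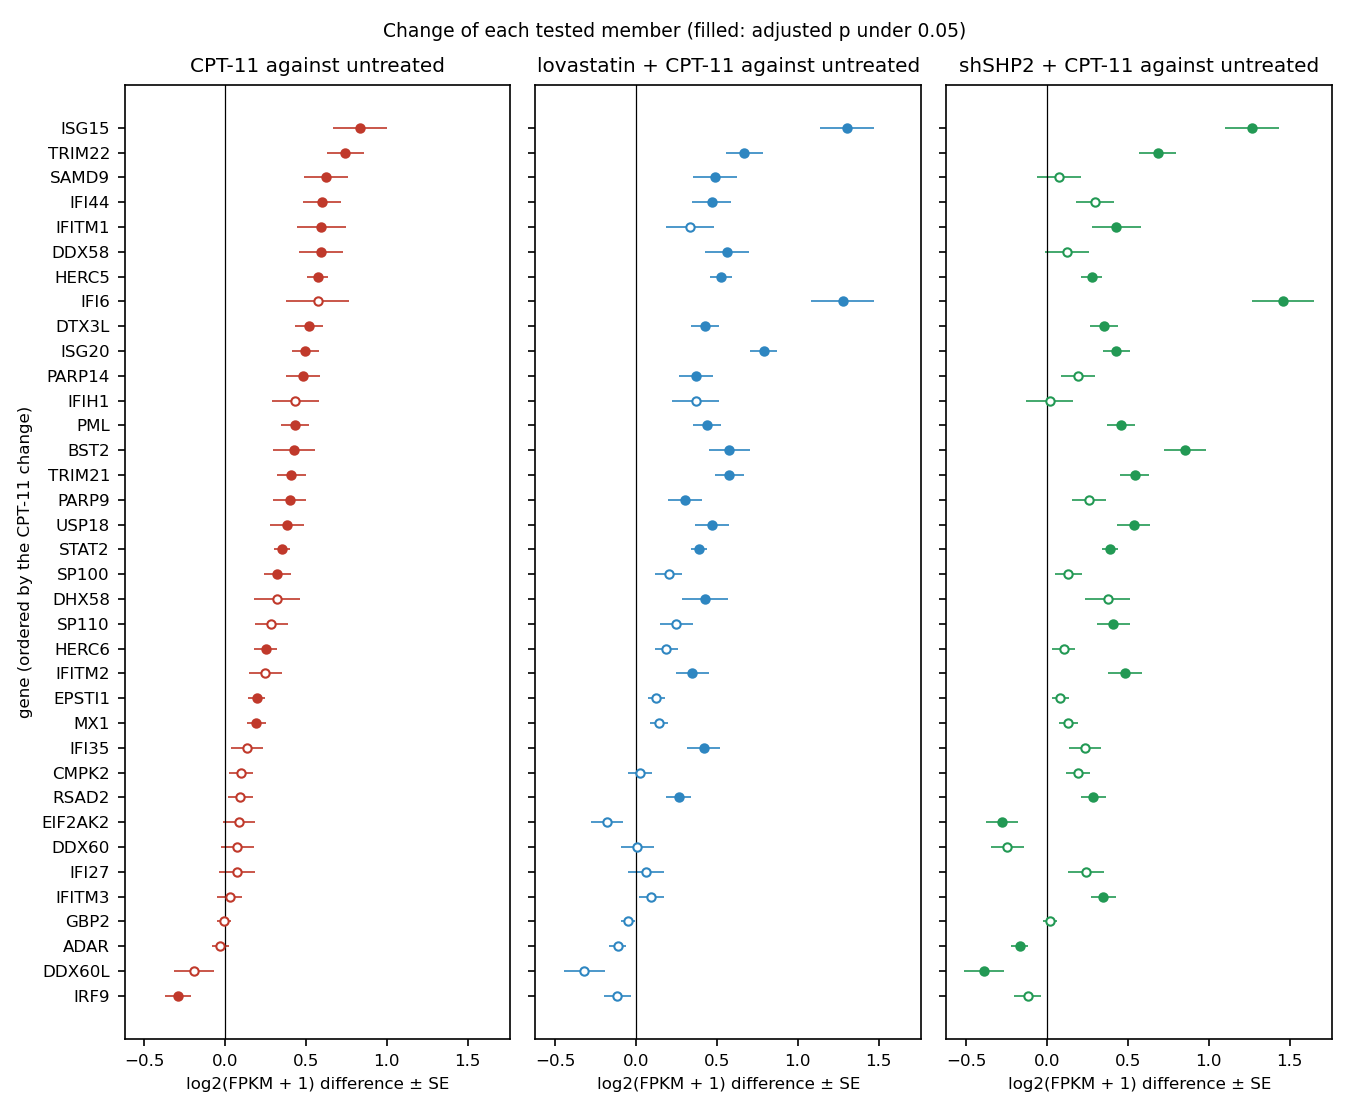
Log2(FPKM + 1) difference ± SE from untreated libraries for each of the 36 tested members in the 3 treated groups, ordered by the CPT-11 change, with filled points for adjusted p under 0.05. The CPT-11 changes run from -0.29 for IRF9 to 0.83 for ISG15, and IFI6 has the largest change in silenced cells at 1.46.

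The treated groups were also compared with each other. Lovastatin before CPT-11 moved no member past the threshold relative to CPT-11 alone, where 0.393% of all genes rose and 0.072% fell; 6 members had an unadjusted p under 0.05, and voom on the recovered reads also called 0. The groups did not overlap, lovastatin above, in 4 members (IRF9, ISG20, IFI35 and TRIM21), where 8.18% of all genes had such groups, and below in 1 (EPSTI1), where 8.89% had. The differences were 0.71 ± 0.19 for IFI6 (adjusted p = 0.15), 0.47 ± 0.17 for ISG15 (0.19) and 0.29 ± 0.08 for ISG20 (0.15). This comparison turned on CPT-11 replicate 3. Without it, 4 members rose (ISG15, ISG20, IFI6 and IFI35) and 5 fell (DDX60L, EIF2AK2, SAMD9, DTX3L and SP100), where 15.9% of all genes rose and 14.3% fell. With the GC and length correction as well, ISG15, IFI6 and RSAD2 rose and none fell, where 7.92% of all genes rose and 9.37% fell, so 3 of 36 higher is near the share over all genes.

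Between silenced and wild-type cells, both given CPT-11, 8 of the 36 tested members differed (22.2%), which is the share over all genes (22%). IFITM3, BST2 and IFI6 were higher and HERC5, DDX58, DDX60, EIF2AK2 and SAMD9 were lower, 3 and 5 of the 36 tested, where 10% of all genes rose and 12% fell. Groups did not overlap in 5 members with the silenced group above and in 9 with it below, against 16.8% and 19.1% of all genes. IFI6 was higher by 0.89 ± 0.19 (adjusted p = 0.013), BST2 by 0.43 ± 0.13 (0.037) and IFITM3 by 0.32 ± 0.08 (0.018). SAMD9 was lower by -0.55 ± 0.14 (adjusted p = 0.02), DDX58 by -0.47 ± 0.14 (0.033), EIF2AK2 by -0.36 ± 0.10 (0.027), DDX60 by -0.32 ± 0.10 (0.046) and HERC5 by -0.30 ± 0.07 (0.013). Without CPT-11 replicate 1 or replicate 2, or in the fit to the 2 groups only, none of the 8 passed, and without silenced replicate 1 HERC5 alone passed. Without silenced replicate 2, IFITM3, IFI6 and HERC5 passed, and without silenced replicate 3, IFI6 was the 1 higher member and HERC5, EIF2AK2 and SAMD9 were lower. Without CPT-11 replicate 3, 5 members were higher and 13 lower, all 8 among them, where 21.6% and 21.9% of all genes were.

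Against lovastatin and CPT-11, silenced cells had 0 members higher and 2 lower, HERC5 (-0.25 ± 0.07, adjusted p = 0.045) and ISG20 (-0.36 ± 0.08, 0.027), where 2.58% of all genes rose and 4.26% fell. Groups did not overlap in 3 members with the silenced group above and in 8 with it below, against 16.3% and 19.2% of all genes. Scaling to library totals changed the split of all genes from 466 higher and 769 lower to 625 and 672 here, and from 1807 and 2167 to 2364 and 1639 for silenced cells against CPT-11 alone. Both calls were lost when any 1 library of the 2 groups was left out. DDX58 (-0.44 ± 0.14, adjusted p = 0.083) and SAMD9 (-0.41 ± 0.14, 0.096) did not pass. Both passed, as lower, with voom, in the fit to the 2 groups only and after GC and length correction (DDX58 -0.35, adjusted p = 0.033, and SAMD9 -0.28, 0.03).

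The differences between treated groups ran with the GC content of the members' transcripts. Across the 36 tested members, Spearman's rho between GC content and change was 0.74 for silenced cells against CPT-11 alone, 0.71 for lovastatin against CPT-11 alone, 0.48 for silenced cells against lovastatin and 0.79 for CPT-11 replicate 3 against the mean of replicates 1 and 2, where the points share libraries. Against untreated cells it was -0.02 with CPT-11, 0.26 with lovastatin and 0.57 in silenced cells. Without CPT-11 replicate 3, rho was 0.79 for silenced cells against CPT-11 alone, 0.77 for lovastatin against CPT-11 alone and -0.24 for CPT-11 against untreated cells. After correction for GC content and gene length it was 0.11 for silenced cells against CPT-11, 0.09 for silenced cells against lovastatin and -0.05 for lovastatin against CPT-11. That correction subtracts the trend of each library with GC content and length, so a lower rho follows from it and is no separate result. Real changes that run with GC content would be lowered as well. In CPT-11 replicate 3, the 16 members with at least 50% GC had a median of 0.39 above the untreated mean and the 20 others a median of 0.16, whereas in replicates 1 and 2 the medians were 0.33 and 0.29 for the GC-rich and 0.43 and 0.37 for the others. In silenced libraries the GC-rich medians were 0.36 to 0.46 and the others 0.08 to 0.18.

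With the GC and length correction, IFI6 (0.66, adjusted p = 0.012), SAMD9 (-0.26, 0.035) and HERC5 (-0.17, 0.027) still differed between silenced and wild-type cells given CPT-11. BST2, IFITM3, DDX58, DDX60 and EIF2AK2 did not pass there. RSAD2 (0.37, 0.023) and SP110 (0.27, 0.036) passed there in addition, both higher in silenced cells. That makes 3 members higher and 2 lower, where 8.48% and 9.27% of all genes were, so the members' share was again near that of all genes. Against untreated cells the corrected counts were 22 higher and 1 lower with CPT-11, where 12.5% and 12.9% of all genes were. They were 24 and 1 with lovastatin, against 17% and 17.8%, and 22 and 1 in silenced cells, against 20.1% and 20.4%. In silenced cells the members called were not the same: ADAR, DDX60L, EIF2AK2, IFITM1 and IFITM3 lost the call, and HERC6, DDX58, SAMD9, IFI44, EPSTI1, PARP9, PARP14, SP100 and, as lower, IRF9 gained it. With lovastatin DHX58 lost the call and HERC6, IFIH1, EPSTI1, SP100, SP110 and, as lower, IRF9 gained it. With CPT-11 alone EPSTI1 and MX1 lost it and IFIH1, IFITM2, IFI6 and SP110 gained it. The correction was fitted on genes with a mean of at least 1 FPKM and then applied to all. Calls gained or lost under it by members below that level (IRF9, EPSTI1, RSAD2, MX1 and IFITM1) are therefore less certain.

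**Figure D5:**
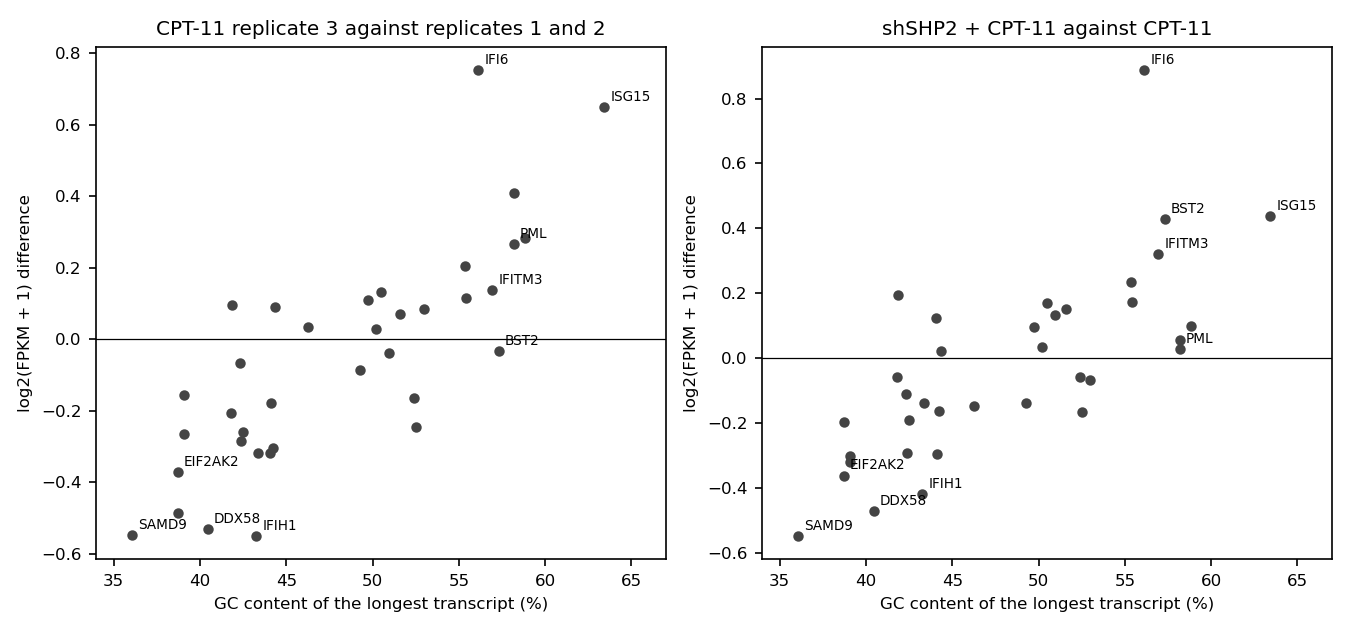
GC content of the longest transcript (percent) against the log2(FPKM + 1) difference of CPT-11 replicate 3 from replicates 1 and 2 (left) and of silenced from wild-type cells given CPT-11 (right), 1 point per tested member, with 9 named. In both panels SAMD9 and DDX58 lie at low GC and below 0, and ISG15 and IFI6 lie at high GC and above 0.

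The rest of the pathway was described by a list of 33 genes for interferons, receptors, kinases, transcription factors, STING signalling and inhibitors, of which 27 were tested. With CPT-11, 2 rose and 0 fell, with lovastatin 8 rose and 2 fell, and in silenced cells 4 rose and 4 fell. The shares higher were 7.41%, 29.6% and 14.8%, against 8.85%, 14.7% and 18.3% of all genes. With lovastatin the share lay above that of all genes, and in the other 2 groups it was near it. The shares lower were 0%, 7.41% and 14.8%, against 7.7%, 14.3% and 19.5%. Among the ligands, the type III interferon IFNL1 had 17, 18 and 21 reads in untreated libraries, 26, 36 and 26 with CPT-11, 68, 50 and 63 with lovastatin before CPT-11, and 36, 26 and 47 in silenced cells. The lovastatin libraries were above all others and the untreated ones below all others. IFNL1 rose by 1.13 ± 0.17 log2 units with lovastatin (adjusted p = 5.6e-04) and 0.55 ± 0.17 in silenced cells (0.024), and its change with CPT-11 alone was 0.35 ± 0.17 (0.19). The call in silenced cells was lost after GC and length correction (0.34, adjusted p = 0.18). IFNL2 (0.89 ± 0.16, adjusted p = 0.0022) and IFNL3 (1.08 ± 0.28, 0.013) rose with lovastatin too, but these near-identical copies may share reads.

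IFNB1, the type I interferon usually made by epithelial cells, had 1, 1 and 1 reads in untreated libraries, 0, 9 and 4 with CPT-11, 5, 8 and 2 with lovastatin before CPT-11, and 4, 4 and 2 in silenced cells, too few to test. IFNA1, IFNA2, IFNA5, IFNG and IFNK had 0 to 5 reads, and IFNE, with 9 to 30 reads, passed in none of the comparisons.

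TMEM173, which encodes STING, and STAT3 rose in all 3 treatments. TMEM173 was 4.5, 4.16 and 4.05 FPKM in untreated libraries, 8.69, 7.60 and 10.4 with CPT-11, 11.2, 10.8 and 10.1 with lovastatin before CPT-11, and 11.1, 11.7 and 11.6 in silenced cells. All treated libraries were above the untreated ones. Its rise was 0.91 ± 0.09, 1.16 ± 0.09 and 1.25 ± 0.09, and that of STAT3 0.61 ± 0.06, 0.61 ± 0.06 and 0.67 ± 0.06. The kinase TYK2 rose with lovastatin (0.51 ± 0.09, and 0.33 with the GC and length correction). It also rose in silenced cells (0.32 ± 0.09), but with that correction its change there was 0.08 and not called. The transcription factors IRF1 (0.43 ± 0.10) and IRF7 (0.55 ± 0.16) rose with lovastatin. With that correction both were still called, at 0.41 and 0.29. The IRF7 call held in 11 of 15 alternatives. PTPN2, a phosphatase that acts on JAK1, fell with lovastatin (-0.52 ± 0.11) and in silenced cells (-0.56 ± 0.11), as did PIAS1, a SUMO ligase that restrains interferon signalling (-0.34 ± 0.09 and -0.37 ± 0.09, the latter -0.13 and not called with that correction). JAK1 (-0.41 ± 0.09) and the receptor subunit IFNGR2 (-0.30 ± 0.07) fell in silenced cells.

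Between the treated groups, the pathway list had 0 calls for lovastatin against CPT-11 alone. In silenced cells against CPT-11 alone, TMEM173 was higher (0.34 ± 0.09) and the receptor subunits IFNAR1 (-0.33 ± 0.09) and IFNGR2 (-0.32 ± 0.07) and the kinases JAK1 (-0.34 ± 0.09), JAK2 (-0.44 ± 0.12) and TBK1 (-0.49 ± 0.14) were lower, with adjusted p from 0.015 to 0.03. These are 3.7% higher and 18.5% lower of the 27 tested, against 10% and 12% of all genes. The calls depended on the setting: of 16 alternatives JAK2 passed in 6, IFNAR1, TBK1 and TMEM173 in 8, JAK1 in 9 and IFNGR2 in 12. With the GC and length correction TMEM173 (0.18, adjusted p = 0.036), IFNGR2 (-0.46, 8.4e-04) and JAK1 (-0.24, 0.033) still passed, and IFNAR1, JAK2 and TBK1 did not. Against lovastatin and CPT-11, IFNGR2 was lower in silenced cells (-0.31 ± 0.07, adjusted p = 0.029).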

How the data were processed

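The deposited table gives FPKM values in 12 libraries, made by the authors from reads per gene. Per the submitters' processing notes, featureCounts 1.5.0-p3, HISAT2 2.0.5, DESeq2 1.16.1, StringTie 1.3.3b and the build hg19 are named, with no role. The coordinates in the table are those of GENCODE 29 on GRCh38 for 100% of the 58735 features with an Ensembl identifier, and are given as GRCh38. Strand and overlap options were not given. FPKM times gene length came out as whole reads for 100% of values within 0.01, and the library factor followed size factors (ratio 0.999 to 1.00), not totals.

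Groups come from sample titles. Genes with at least 10 reads in 3 libraries and 15 in all were tested (18062) with limma 3.58.1 in R 4.3.3, with trend, on log2(FPKM + 1), over all 12 libraries with 1 mean per group. P-values were adjusted by Benjamini-Hochberg over all genes of a comparison, at 0.05. The fit was tested on simulated data, where it missed a first bound on the share of changed genes recovered, and the criterion was then restated by fold and level. Small changes and genes of low FPKM were often missed there, so a member of that kind that did not pass is not shown to be unchanged. Changes are relative to the typical gene, and 3 libraries per group limit the precision. All 6 comparisons of the 4 groups were made. Alternatives were the pseudocount (0.1), the filter, scaling to totals, only the 2 groups, a replicate block, voom on the recovered reads, no trend, and each library left out. A loess correction for GC content and length, alone or without CPT-11 replicate 3, was added after seeing the data. It was fitted on genes with a mean of at least 1 FPKM and subtracted from all genes. On the log2(FPKM + 1) scale it can overcorrect genes below that level.

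The members and lists were chosen with earlier results of these data known. Values in every library are given for members past the threshold in some comparison, at most the 4 with the smallest p in each, and for the 2 most abundant of each role; other members are given by range and count. PTPN11, HMGCS1 and CDKN1A serve as checks, and of the pathway list the interferons and called genes are named; 1 gene of that list is not reported here. Promoter windows are RefSeq's (GRCh38.p14), with no window matched for USP18, DHX58, MX2, GBP2, IFITM2, PML and TRIM22.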

Additional observations from a re-analysis of the deposited data

How the results depend on the processing

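No member had a call in the direction opposite to its reported change under any alternative run. In the pathway list, TYK2 in silenced cells against CPT-11, not called, was higher without CPT-11 replicate 3 (0.19, adjusted p = 0.019) and lower with the GC and length correction (-0.19, 0.0075). IRF3 in silenced against untreated cells was 0.05 and not called, but lower with that correction (-0.18, adjusted p = 0.016). IL10RB in silenced cells against CPT-11 was -0.05 and not called, but higher with the correction and without CPT-11 replicate 3 (0.27, adjusted p = 0.033). The rises against untreated cells were the steadier counts: with lovastatin before CPT-11, 14 to 24 members rose over all settings, and in silenced cells 13 to 22. With CPT-11 alone the count was 12 to 21 over the 6 fits that leave out 1 library and 6 in the fit to the 2 groups only. Its 1 fall was called in 0 members with no filter, with a mean of at least 1 FPKM (where IRF9 was not tested) and in the fit to the 2 groups only, and in 0 to 1 without 1 library. Falls with lovastatin numbered 1 in the fit to the 2 groups only, with voom and with the GC and length correction. Falls in silenced cells numbered 0 with no filter and with scaling to totals, 1 with the GC and length correction, and 0 to 3 without 1 library.

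For lovastatin against CPT-11, rises numbered 0 to 4 and falls 0 to 5 without 1 library, all from leaving out CPT-11 replicate 3, and 3 rose with the correction and without that library. For silenced cells against CPT-11, rises numbered 0 to 5 and falls 0 to 13 without 1 library, both were 0 in the fit to the 2 groups only, and falls numbered 1 with no filter, 3 with the replicate block and 2 with the correction. For silenced cells against lovastatin, rises numbered 1 with scaling to totals, in the fit to the 2 groups only and with the correction, and 0 to 1 without 1 library; falls numbered 0 with no filter and with the replicate block, 1 with scaling to totals and with no variance trend, 5 in the fit to the 2 groups only and with the correction, 4 with voom, and 0 in each fit without 1 library. The cause of these shifts was not tested, except that omitting libraries or groups leaves fewer samples.

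Counts over all genes moved as well. Calls with CPT-11 numbered 2989, and 1154 in the fit to the 2 groups only, 4591 with the correction, 4880 with it and without CPT-11 replicate 3, and 1931 to 4420 without 1 library. For lovastatin against CPT-11 they numbered 84, and 36 in the 2-group fit, 46 with the replicate block, 141 with voom, 351 with the correction, 3123 with it and without CPT-11 replicate 3, and 41 to 5455 without 1 library. For silenced cells against CPT-11 they numbered 3974, and 451 in the 2-group fit, 1750 with no filter, 2356 with the replicate block, and 1007 to 7849 without 1 library. For silenced cells against lovastatin they numbered 1235, and 2438 in the 2-group fit, 2188 with the correction, 767 with the replicate block, and 598 to 731 without 1 library.

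Replicate numbers did not pair the libraries: the 18 same-number pairs had correlations of -0.389 to 0.174, 2 of them over 0.1. The replicate block gave 18 higher and 1 lower with CPT-11, 17 and 0 with lovastatin, 16 and 2 in silenced cells, 2 and 3 for silenced cells against CPT-11, and 0 and 0 for both other comparisons. Depth limits the members under 1 FPKM, where 1 read more or less moves a value visibly.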
